A study of Mus musculus with 28 samples.

Results

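The genes described here are the mouse *Zfp* genes, those whose symbol is Zfp followed by a digit, and they were followed in microglia from the embryo to the adult brain. Of 331 such genes with a probe on the array, 213 had at least 1 probe with a detection p-value under 0.01 on 3 or more of 25 distinct arrays, and these 213 were measured among 10630 genes that met the same filter. The other 118 were not analysed further, and 97 of them were detected on no array. At the edge of the filter, 7 genes were detected on 2 arrays and left out, and 4 were detected on 3 arrays and kept. Microglia, the resident macrophages of the brain, were sorted as CD45low CD11b+ F4/80+ CD64+ Ly6C- cells from C56BL/6 mice (the strain as spelled in the labels), with no transgene, knockout or treatment in any group. The groups were macrophages of the yolk sac (YSM, 4 arrays, taken at E10.5) and brain microglia of embryos from E10.5 to E18.5 in steps of 2 days, of newborns (P0) and of adults aged 2 months (Adult), with 3 arrays per stage. RNA on each array came from a pool of several animals of either sex, so the spread between arrays is a spread between pools. The 6 adult columns held 3 pairs of identical values and were counted as 3 arrays.

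Zinc finger proteins of the C2H2 type fold short peptide loops around a zinc ion, and rows of such loops read DNA sequence. In mammals the largest class of them joins the fingers to a KRAB domain, which recruits TRIM28 and, through it, the histone methyltransferase SETDB1, and much of this class is known for silencing retroelements. The *Zfp* symbol also covers unlike proteins: ZFP36 and its relatives have CCCH fingers, bind AU-rich elements in mRNAs such as that of TNF, and recruit the machinery that removes poly(A) tails. Many KRAB zinc finger genes lie side by side in clusters of recent duplicates. A probe can therefore bind transcripts of a near-identical neighbour, and this was not tested here.

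Promoter sequence is printed for 5 genes that the results below turn on: *Zfp979*, which was highest in YSM and not detected in adult microglia; *Zfp579* and *Zfp30*, which by their brightest probes were 2 of the 3 with the largest rises of adult over E10.5 microglia; *Zfp691*, among the largest rises of adult over P0; and *Zfp36*, the mRNA decay factor with its highest mean at E16.5. Each run is the 250 bases before the RefSeq transcription start (GRCm38.p6), 5′ to 3′ on the strand of the gene. Capitals mark the searched motifs that a script found on either strand: the GC box GGGCGG, the CCAAT box, the core of the TATA box (TATAA), the AP-1 site (TGANTCA), the cyclic AMP response element (TGACGTCA), the PU.1 site (GAGGAAGT) and the CArG box bound by serum response factor.
Zfp979, chr4:147642509-147642758, minus strand: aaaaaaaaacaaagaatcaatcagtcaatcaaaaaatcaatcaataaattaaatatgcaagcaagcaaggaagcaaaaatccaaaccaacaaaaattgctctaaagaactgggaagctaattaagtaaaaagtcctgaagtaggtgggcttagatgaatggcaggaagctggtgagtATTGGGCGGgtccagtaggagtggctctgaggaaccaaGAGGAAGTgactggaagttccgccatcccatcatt
Zfp579, chr7:4996102-4996351, minus strand: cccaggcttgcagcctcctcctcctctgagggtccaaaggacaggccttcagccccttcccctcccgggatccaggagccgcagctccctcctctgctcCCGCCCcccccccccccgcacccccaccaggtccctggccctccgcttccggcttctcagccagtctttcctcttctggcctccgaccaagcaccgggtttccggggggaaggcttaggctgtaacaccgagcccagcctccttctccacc
Zfp30, chr7:29783718-29783967, plus strand: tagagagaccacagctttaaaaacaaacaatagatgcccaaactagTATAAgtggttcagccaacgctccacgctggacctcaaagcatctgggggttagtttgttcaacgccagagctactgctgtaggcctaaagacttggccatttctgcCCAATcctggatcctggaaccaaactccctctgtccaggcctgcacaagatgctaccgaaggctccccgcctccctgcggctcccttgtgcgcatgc
Zfp691, chr4:119174196-119174445, minus strand: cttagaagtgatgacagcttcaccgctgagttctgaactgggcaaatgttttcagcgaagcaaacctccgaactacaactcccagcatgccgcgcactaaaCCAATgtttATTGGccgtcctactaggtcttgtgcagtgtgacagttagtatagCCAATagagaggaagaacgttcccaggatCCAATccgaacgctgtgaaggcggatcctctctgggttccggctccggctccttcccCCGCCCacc
Zfp36, chr7:28379229-28379478, minus strand: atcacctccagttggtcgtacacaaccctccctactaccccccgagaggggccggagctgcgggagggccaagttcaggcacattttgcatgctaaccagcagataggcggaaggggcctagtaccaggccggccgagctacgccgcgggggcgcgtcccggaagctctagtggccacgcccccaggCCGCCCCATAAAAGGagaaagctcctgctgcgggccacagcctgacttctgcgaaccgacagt

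The *Zfp979* window held 2 CpG pairs and 39.6% G and C, with a CCAAT box and a GC box that overlap and a PU.1 site. The *Zfp36* window held 18 CpG pairs and 64.8% G and C, with a GC box that runs into a CArG box. *Zfp691* had 4 CCAAT boxes, a GC box and 13 CpG pairs. Windows were read for the 178 measured *Zfp* genes that had an entry. Their median was 12 CpG pairs, against 10 over 17492 promoters of protein-coding genes and 6 over all 27025 promoters. A GC box was in 46.6% of the 178 windows, against 42.7% of protein-coding and 32.9% of all promoters, and a CCAAT box in 43.8%, against 36.3% and 34.5%. The AP-1 site was in 5.62% of the *Zfp* windows, against 6.22% of protein-coding and 6.87% of all promoters. The corresponding shares were 15.2%, 21.3% and 23.5% for the TATA box core. The cyclic AMP response element was in 3.93%, against 2.01% of protein-coding and 1.62% of all promoters, the PU.1 site in 2.25%, against 2.18% and 2.44%, and the CArG box in 1.69%, against 1.39% and 1.4%. Among the 102 windows of genes that rose in adult over P0 microglia, 44.1% held a GC box, 41.2% a CCAAT box and 3.92% the cyclic AMP response element. In the other 76 those shares were 50.0%, 47.4% and 3.95%. A motif match is only a match of letters.

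The arrays detected between 13224 and 17937 probes each, and the number of arrays, not a read depth, limited the precision. The background of an array, the median signal of its probes far from detection, was 60.8 to 69.01 units in YSM and 101 to 144.9 in all microglial groups. The 75th percentile of signal stood 2.833 to 3.795 times above that background at E16.5 to P0, against 1.467 to 2.588 times in the other groups. Macrophage identity genes (7 of 8 listed were measured) averaged 12.76 on the log2 scale in adult microglia and 10.57 in YSM, and microglial genes such as *Tmem119* and *P2ry12* 14.47 in adult and 9.23 in YSM. Sorted pools held other signals too, and these are given beside the results they move with. In such bulk samples, fewer cells of a type and less RNA per cell cannot be told apart.

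Most *Zfp* genes differed between groups, and most were highest in the adult. With 1 limma model over all arrays and p-values adjusted over all 10630 genes by the Benjamini-Hochberg method (threshold 0.05), 190 of the 213 passed the moderated F test over the 8 groups, where 91% of all genes passed. The highest of the 8 group means was in Adult for 125 genes, 118 of which passed the F test. This was 58.7% of the *Zfp* genes, against 25.9% of all genes. YSM held the highest mean of 28 (13.1%, against 25.5% of all genes) and E10.5 of 11 (5.16%, against 14.7%). In time order, 9 peaked at E12.5, 15 at E14.5, 9 at E16.5, 10 at E18.5 and 6 at P0. These are shares of genes that passed the detection filter, which a gene bright in a single group can pass through that group alone. For the 117 *Zfp* genes detected on every array, 66 (56.4%) were highest in Adult, against 26.9% of all genes so detected, a filter chosen after the data were seen. With no filter on dim probes, 144 of 331 (43.5%) were highest in Adult, against 19.9% of all genes.

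**Figure D1:**
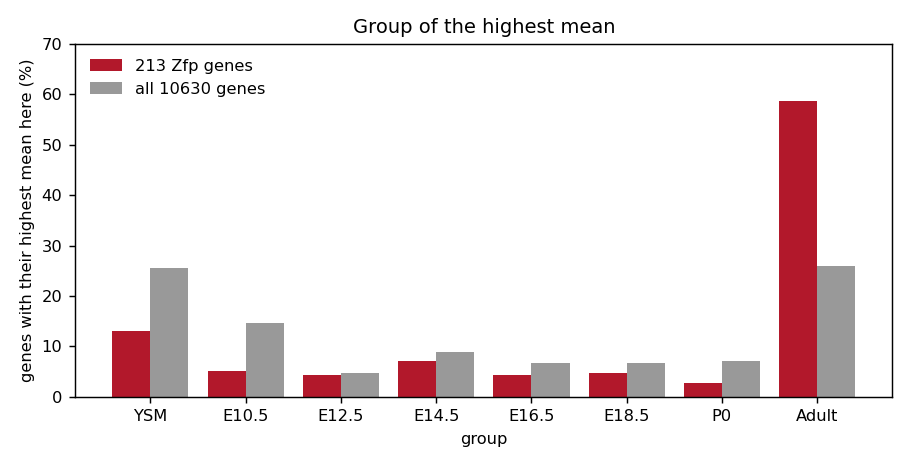
Share of genes (%, vertical axis) whose highest group mean fell in each of the 8 groups (horizontal axis, in time order), as bars for the 213 *Zfp* genes (red) and for all 10630 genes (grey). The adult bar of the *Zfp* genes stands at 58.7%, against 25.9% for all genes.

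The low end of the profiles lay in 3 groups. The lowest mean was in YSM for 63 genes (29.6%, against 20.4% of all genes), at E16.5 for 48 (22.5%, against 10%) and in E10.5 microglia for 37 (17.4%, against 13.8%). In Adult it was lowest for 10 (4.69%, against 29.6% of all genes). The most frequent pairings of highest with lowest group were Adult with YSM (49 genes, 23%, against 10.1% of all genes), Adult with E16.5 (28, 13.1%, against 2.85%) and Adult with E10.5 (24, 11.3%, against 6.61%). Another 7 were highest at E14.5 and lowest at E16.5 (3.29%, against 0.903%). The map of all 213 genes shows this as a band of high adult levels and a blue step at E16.5.

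**Figure D2:**
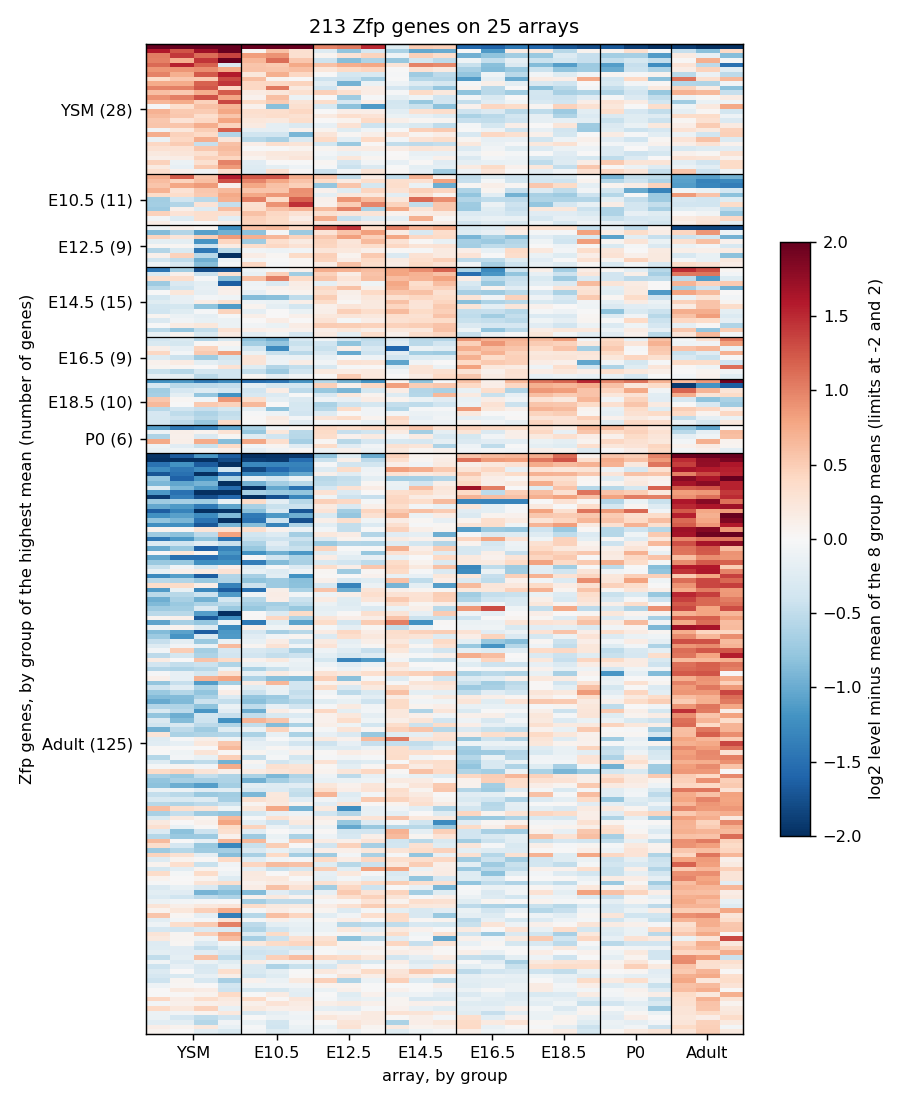
Levels of the 213 *Zfp* genes (rows, grouped by the group of their highest mean, with the number of genes) on the 25 arrays (columns, by group in time order). Colour is the log2 level minus the mean of the gene's 8 group means, from blue (below) to red (above), with limits at -2 and 2. The Adult block of 125 genes fills most of the rows.

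The size of these changes was moderate. The difference between the highest and the lowest group mean had a median of 1.31 on the log2 scale over the *Zfp* genes (quartiles 0.903 and 1.662), against 1.361 over all genes. For the *Zfp* genes it was 0.79 without background correction, 0.787 in the authors' normalized values and 0.917 with no filter on dim probes. It was above 1 in 142 (66.7%, against 70.5% of all genes), above 2 in 36 (16.9%, against 25.9%) and above 3 in 6. The span ran from 0.24 in *Zfp512b* to 5.43 in *Zfp979*. *Zfp512b*, for which the F test gave an adjusted p of 0.408, lay between 10.26 and 10.91 on every array. The probes of the *Zfp* genes were dimmer than most: their mean level had a median of 7.49, against 8.56 over all genes. Array by array, the median *Zfp* gene stood 0.592, 0.654 and 0.380 above its own mean of group means on the 3 adult arrays, where the median of all genes was -0.061, -0.028 and -0.115. It stood at -0.174, -0.194 and -0.15 on the E16.5 arrays and at -0.233, -0.158, -0.253 and -0.11 on the YSM arrays. No array of any other group came near the adult ones, the highest being an E14.5 array at 0.158.

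**Figure D3:**
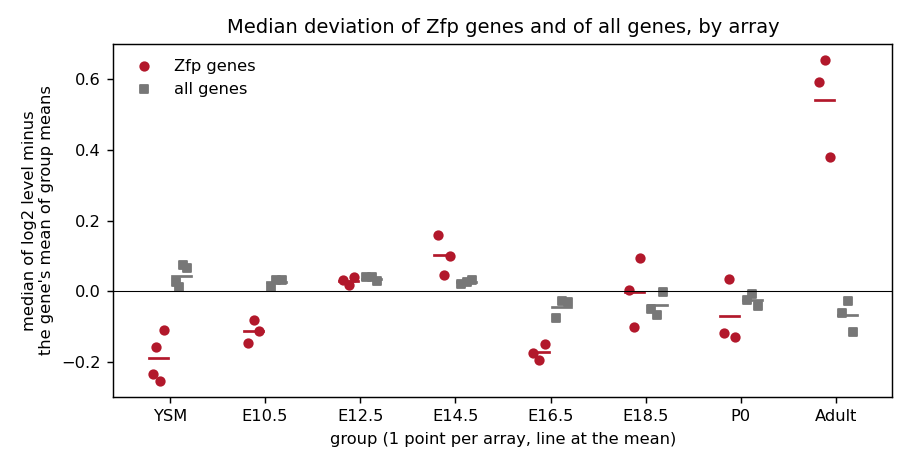
Median over genes of the log2 level minus the gene's mean of group means (vertical axis), 1 point per array with a line at the group mean, for the *Zfp* genes and for all genes, by group in time order (horizontal axis). The adult arrays stand at 0.380 to 0.654 for the *Zfp* genes and at -0.115 to -0.028 for all genes.

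Yolk sac and brain were compared at the same age. In E10.5 microglia over YSM, 33 *Zfp* genes were higher (15.5%, against 10% of all genes) and 15 lower (7.04%, against 9.51%), with a median difference of -0.004. *Zfp385a*, first described as a haematopoietic zinc finger gene, stood at 6.72, 7.25 and 6.99 in E10.5 microglia, against 8.26, 7.92, 8.36 and 8.65 in YSM. The groups did not overlap, and the difference was -1.31 ± 0.30 (SE, adjusted p = 0.00441). *Zfp979* fell too, with 9.28, 9.50 and 9.09 in E10.5 microglia, against 10.20, 10.62, 10.59 and 10.21 in YSM. *Zfp687*, which in human cells belongs to a chromatin complex with ZMYND8, fell by 0.80 (adjusted p = 0.00456) and *Zfp335*, a cofactor of histone H3K4 methylation needed in neural progenitors and T cells, by 0.79 (adjusted p = 0.0255). The rises were led by *Zfp457* (6.59, 6.65 and 6.78 in E10.5 microglia, against 5.24, 6.00, 4.91 and 4.95 in YSM, where 1 of 4 arrays detected it) and *Zfp868* (1.15 ± 0.28, adjusted p = 0.00741). The second probe of *Zfp868* did not rise (6.145 in E10.5 microglia, 6.254 in YSM), and the mean of its probes gave 0.522 (adjusted p = 0.0238). *Zfp365* was at least 1.24-fold higher, detected on 2 of 3 E10.5 arrays and on no YSM array, but its second probe followed another course. The step in array background between YSM and brain coincides with the tissue and cannot be told apart from it. Endoderm and epithelium genes averaged 5.66 in E10.5 microglia and 8.52 in YSM, and erythroid genes 9.62 in E10.5 microglia and 11.38 in YSM, and their part in these differences was not tested. The number called was 28 on leaving out YSM replicate 3 or else E10.5 replicate 1, and 29 on leaving out E10.5 replicate 2, in place of 48. Scaling to the 75th percentile gave 18 higher and 13 lower (58.1% higher among calls, against 68.8%).

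From E10.5 to E12.5 the rises outnumbered the falls. In E12.5 over E10.5 microglia 37 *Zfp* genes rose (17.4%, against 14.46% of all genes) and 10 fell (4.69%, against 16.2%), with a median of 0.109, against -0.014. That median was 0.07 without background correction, 0.069 in the authors' normalized values, 0.053 with no filter on dim probes and 0.008 after scaling to the 75th percentile. *Zfp30*, a KRAB zinc finger gene, stood at 7.81, 8.44 and 7.97 at E12.5, against 6.24, 6.50 and 6.68 at E10.5, a 3.03-fold rise with no overlap (1.60 ± 0.23, adjusted p = 3.63e-05). Its second probe, however, gave group means of 6.62 at E12.5 and 6.70 at E10.5. *Zfp532* stood at 8.38, 8.93 and 8.29 at E12.5, against 6.92, 6.89 and 7.28 at E10.5, a 2.83-fold rise with no overlap. *Zfp607a* rose as widely (1.60 ± 0.46, adjusted p = 0.0116), with a wider spread between arrays and a second probe that did not follow it. *Zfp703*, a repressor studied in human luminal breast cancer, rose as well (1.00 ± 0.21, adjusted p = 0.00114). *Zfp979* fell again, by 1.14. *Zfp296*, a gene of pluripotent cells and early development, stood at 5.08, 4.64 and 4.87 at E12.5, where no array detected it, against 6.17, 6.61 and 6.03 at E10.5 (adjusted p = 0.000265), where 1 of 3 arrays did, so that no fold is given. *Zfp688* fell by 1.00 (adjusted p = 0.00488). Border macrophage genes (5 of 5 higher) averaged 12.51 at E12.5 and 9.93 at E10.5, neuron genes (4 of 5 higher) 7.76 at E12.5 and 6.27 at E10.5, and immediate early genes (4 of 10 higher) 11.32 at E12.5 and 10.02 at E10.5. Granulocyte and monocyte genes (4 of 6 lower) averaged 6.55 at E12.5, from 5.27 to 8.65 over the arrays, and 9.55 at E10.5. The part of these signals in the changes of the *Zfp* genes was not tested. Without E10.5 replicate 1 the number called was 31 in place of 47. Scaled to the 75th percentile, which shifted the median of all genes by -0.169, 21 rose and 14 fell (60% rises, against 78.7%), and for all genes the share of rises among calls was 25.1%, against 47.1%.

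Between E12.5 and E14.5 almost nothing passed the test. *Zfp979* alone was called in E14.5 over E12.5 microglia, as lower (-0.92 ± 0.19, adjusted p = 0.0161), so that 0 *Zfp* genes rose, where 0.875% of all genes rose and 0.508% fell. At an unadjusted p under 0.05, 14 *Zfp* genes passed in limma (6.57%, against 15.4% of all genes), and the methods' analysis of variance with Tukey's test called 2. On leaving out E12.5 replicate 3 the adjusted p of *Zfp979* was 0.0853, and on leaving out E14.5 replicate 1 it was 0.0785.

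At E16.5 the balance turned to falls. In E16.5 over E14.5 microglia 65 *Zfp* genes fell (30.5%, against 20% of all genes) and 12 rose (5.63%, against 12.9%), with a median of -0.156, against -0.082. The excess of falls was uneven over levels of signal. Among the dimmest it was 13%, against 9.89% of all genes in the same range, then 47.2% against 18.2%, 26.4% against 22.3% and, among the brightest, 35.8% against 25.1%. *Zfp763* stood at 5.64, 5.98 and 6.36 at E16.5, against 7.93, 7.84 and 7.73 at E14.5 (-1.84 ± 0.31, adjusted p = 0.000365), the largest fall with no overlap. *Zfp37*, a KRAB zinc finger gene known from testis and brain, read 5.40 on all 3 E16.5 arrays, none of which detected it, against 7.14, 7.07 and 7.35 at E14.5, at least 2.53-fold lower, although its second probe was higher at E16.5 (6.58) than at E14.5 (5.76). *Zfp979* reached background here by its main probe: 5.43, 5.38 and 5.58 at E16.5, against 6.75, 7.50 and 7.47 at E14.5, at least 2.62-fold lower. *Zfp322a*, a factor of embryonic stem cells, fell by 1.06 (adjusted p = 0.0018) and *Zfp346*, which binds double-stranded RNA, by 0.90 (adjusted p = 0.000354). The second probe of *Zfp346* did not fall (6.696 at E16.5, 6.485 at E14.5).

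The 12 that rose at E16.5 included named regulators. *Zfp692*, a repressor of gluconeogenic genes phosphorylated by AMPK, stood at 10.02, 9.83 and 9.84 at E16.5, against 8.81, 8.59 and 8.55 at E14.5, a 2.38-fold rise with no overlap (1.25 ± 0.25, adjusted p = 0.00132). *Zfp335* rose by 1.08 (adjusted p = 0.00381), *Zfp91*, an E3 ligase of the noncanonical NF-kB pathway, by 0.81 (adjusted p = 0.000345), and *Zfp598*, the ligase that marks collided ribosomes, by 0.83 (adjusted p = 0.0244). *Zfp1* was at least 1.17-fold higher, since no E14.5 array detected it. Heat shock genes (2 of 4 higher) averaged 11.45 at E16.5 and 9.67 at E14.5. Of these, *Dnajb1* (11.80 at E16.5, 11.86 at E14.5) and *Hsph1* (10.54 at E16.5, 10.64 at E14.5) did not rise. Immediate early genes (3 of 10 higher) averaged 11.87 at E16.5 and 10.63 at E14.5. The brightness of the arrays stepped up at the same stage. The part of these signals and of brightness in the changes of the *Zfp* genes was not tested. Scaling to the 75th percentile, which shifted the median difference of all genes by -0.21 in this comparison (to -0.292, and that of the *Zfp* genes to -0.366), gave 11 rises and 79 falls, and lowered the share of rises among all called genes to 20.6%, against 39.3%. Without E14.5 replicate 1 the median of the *Zfp* genes was -0.078 and that of all genes -0.071.

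From E16.5 to birth few *Zfp* genes passed the test. In E18.5 over E16.5 microglia 4 rose (1.88%, against 1.37% of all genes) and *Zfp352* fell (0.469%, against 0.95%). The median difference was 0.165, against 0.011 over all genes, and at an unadjusted p under 0.05 in limma 54 *Zfp* genes passed (25.4%, against 14.8% of all genes). That median was 0.093 without background correction, in the authors' normalized values and with no filter on dim probes. Heat shock genes (1 of 4 lower) averaged 9.38 at E18.5 and 11.45 at E16.5, and their part was not tested. *Zfp37* averaged 6.82 at E18.5 and 5.40 at E16.5, detected on every array of E18.5 and none of E16.5, at least 1.96-fold higher (adjusted p = 0.00187), but the mean of its probes gave 0.15 (adjusted p = 0.791). *Zfp58* (0.76 ± 0.19, adjusted p = 0.0426), *Zfp318*, a gene that B cells need for surface IgD (0.59 ± 0.15, adjusted p = 0.0385), and *Zfp101* made up the rest. *Zfp352*, a gene of the early embryo, was detected on 1 of 3 E16.5 arrays and on no E18.5 array, so that no fold is given. Leaving out 1 array gave 1 to 8 calls. In P0 over E18.5 microglia 0 *Zfp* genes were called by limma, where 0.047% of all genes rose and 0.00941% fell. At an unadjusted p under 0.05 in limma 12 passed (5.63%, against 5.33% of all genes), and Tukey's test called 1.

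The largest movement came after birth. In adult over P0 microglia 118 *Zfp* genes rose (55.4%, against 24.2% of all genes) and 10 fell (4.69%, against 26.9%), and 85 did not pass. The median difference was 0.596, against -0.031 over all genes, so that the middle of the group stood above the middle of the transcriptome. The size of that median depended on the processing: it was 0.365 without background correction, 0.364 in the authors' normalized values and 0.307 with no filter on dim probes. These settings gave 122, 123 and, among the 331 genes left unfiltered, 113 rises (34.1%, against 13.5% of all genes). The sizes that follow are those of the main setting. Rises ranged from 0.324 to 1.992 on the log2 scale with a median of 0.91, and 44 of the 118 were above 1. Scaled to the 75th percentile, which shifted the median of all genes by 0.14, to 0.109, 134 rose and 9 fell, and over all genes 58.3% of calls were rises, against 47.3%. Among genes detected on every array, 61.5% of 117 *Zfp* genes rose, against 28.9% of all genes. The share was above that of all genes at each level of signal: 48.1% of the 54 dimmest, against 17.8% of all genes in the same range, then 49.1% against 23.4%, 64.2% against 29% and, among the brightest, 60.4% against 25.9%.

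**Figure D4:**
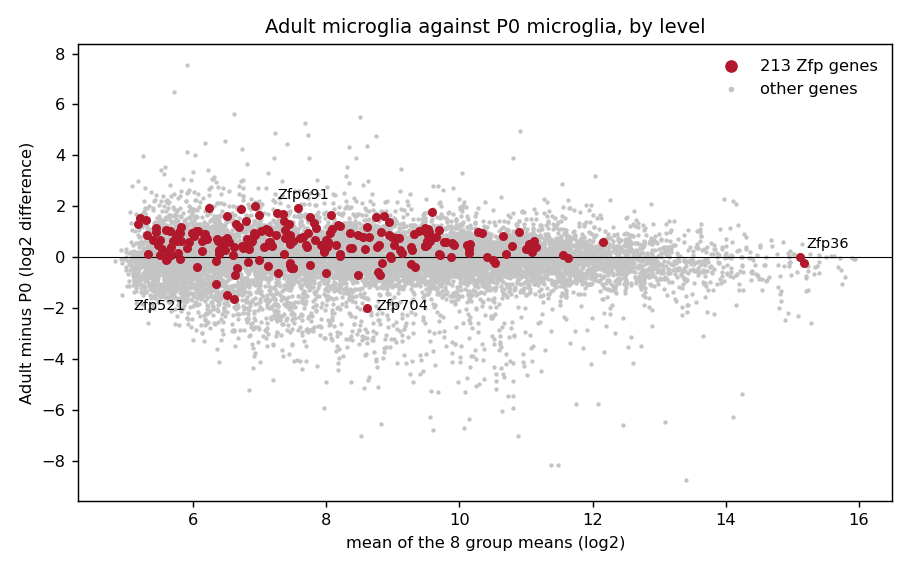
Adult minus P0 difference (log2, vertical axis) by the mean of the 8 group means (log2, horizontal axis) for the 213 *Zfp* genes (red) and the other genes (grey). The red points lie mostly above 0 at all levels, with a median of 0.596, and *Zfp704* at -1.98 is the lowest of them.

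The largest rises after birth were those of *Zfp874b*, *Zfp691* and *Zfp385c*. *Zfp874b* stood at 8.62, 8.75 and 7.81 in adult microglia, against 6.35, 6.50 and 6.36 at P0, a 3.98-fold rise (1.99 ± 0.22, adjusted p = 3.16e-07). *Zfp691* stood at 9.39, 9.20 and 9.95 in adult, against 7.33, 7.72 and 7.66 at P0, a 3.84-fold rise (1.94 ± 0.21, adjusted p = 2.42e-07), and its mean at every earlier stage lay between 6.52 and 7.80. *Zfp385c* stood at 7.89, 8.18 and 8.24 in adult, against 5.66, 6.15 and 6.75 at P0, a 3.78-fold rise. In all 3 genes the groups did not overlap. *Zfp652*, a repressor that in human cells works with CBFA2T3, stood at 8.21, 8.16 and 7.14 in adult microglia, against 6.43, 6.58 and 5.61 at P0 (3.1-fold, adjusted p = 0.000142). *Zfp467*, which favours adipocyte over osteoblast fate in mouse marrow stroma, stood at 10.41, 10.56 and 10.29 in adult, against 8.80, 8.94 and 8.82 at P0 (2.96-fold, adjusted p = 3.39e-05).

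Only 10 *Zfp* genes fell after birth. *Zfp704* stood at 6.70, 7.41 and 6.96 in adult microglia, against 9.20, 8.83 and 8.97 at P0 (fold 0.253, difference -1.98 ± 0.15, adjusted p = 1.89e-09). *Zfp521*, a partner of EBF1 in haematopoietic progenitors and a neural regulator, stood at 4.77, 4.76 and 4.79 in adult, where no array detected it, against 6.42, 6.08 and 6.69 at P0, at least 1.19-fold lower. *Zfp428* was at least 1.51-fold lower, although its second probe followed another course, and *Zfp821* fell by 1.04 (adjusted p = 0.000462). The remaining 6 were *Zfp106*, *Zfp239*, *Zfp41*, *Zfp516*, *Zfp91* and *Zfp664*, by 0.39 to 0.70.

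Several other signals moved in the same comparison. Heat shock genes (4 of 4 measured) ranged from 11.26 to 12.84 over the adult arrays and from 8.37 to 9.95 over the P0 arrays. The immediate early genes (10 of 11 measured) ranged from 10.36 to 12.36 in adult and from 11.20 to 11.67 at P0. Cell cycle genes (4 of 6 measured) averaged 7.18 in adult and 10.19 at P0, border macrophage genes (5 of 5) 6.61 in adult and 13.16 at P0, and neuron genes (5 of 8) 5.17 in adult and 8.42 at P0. In adult microglia 4 of those 5 neuron genes were detected on no array, and at P0 none was at background on all arrays. Glia genes (5 of 7 measured, 4 lower and 1 higher) averaged 5.99 in adult and 7.66 at P0, with *Olig1*, an oligodendrocyte lineage factor, at 5.36 in adult and 10.57 at P0. Endothelium genes (3 of 4 measured, 2 lower and 1 higher) averaged 6.48 in adult and 7.89 at P0. Erythroid genes (6 of 7 measured, 1 higher and 0 lower) averaged 7.94 in adult and 6.78 at P0. Adult brains alone went through a density gradient, the adult arrays were less bright over background than those of P0, and the part of any of these in the *Zfp* rise was not tested. Digestion lasted equally long for newborn and adult brains. It was shorter for embryonic tissue, and so differed in adult over E10.5 and in P0 over E18.5 microglia.

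Over the whole span within the brain, adult over E10.5 microglia, 126 *Zfp* genes rose (59.2%, against 30.6% of all genes) and 25 fell (11.7%, against 35.6%), with a median of 0.626, against -0.089. The median of the *Zfp* genes was 0.417 without background correction, 0.415 in the authors' normalized values and 0.265 with no filter on dim probes. The rises then numbered 126, 126 and, among the 331 genes left unfiltered, 128 (38.7%, against 18.8% of all genes). This comparison shares the adult arrays with adult over P0. Granulocyte and monocyte genes (6 of 7 measured, 5 lower) averaged 4.94 in adult, where no array detected any of them, and 9.55 at E10.5. Border macrophage genes (4 of 5 lower) averaged 6.61 in adult and 9.93 at E10.5, and cell cycle genes (4 of 4 lower) 7.18 in adult and 11.63 at E10.5. Digestion was longer for adult than for embryonic tissue, and only adult brains went through a density gradient. The part of these signals and steps in the changes of the *Zfp* genes was not tested. Scaling to the 75th percentile shifted the median of all genes by -0.288, to -0.377, and gave 96 rises and 33 falls, and over all genes the share of rises among calls was 34.5%, against 46.2%. *Zfp579* stood at 10.83, 11.08 and 11.59 in adult microglia, against 6.26, 6.90 and 6.93 at E10.5, a 22.1-fold rise (4.47 ± 0.27, adjusted p = 8.19e-12). Among its means were 6.70 at E10.5, 8.18 at E12.5, 9.48 at E16.5, 9.50 at E18.5, 9.53 at P0 and 11.16 in adult, and the steps into E12.5 and into the adult passed the test. *Zfp532* rose 11.4-fold (3.51 ± 0.23, adjusted p = 3.54e-11), with means of 7.03 at E10.5, 8.53 at E12.5, 8.99 at E14.5, 9.74 at E16.5, 9.70 at E18.5, 9.55 at P0 and 10.54 in adult, and its second probe ran in parallel (r = 0.993 over the 8 group means, a description). *Zfp30* rose 9.17-fold by its brighter probe, but its second probe had a lower mean in adult (6.35) than at E10.5 (6.70) and did not follow the first (r = 0.039), and the mean of both probes gave a rise of 1.42 on the log2 scale (adjusted p = 6.83e-06). *Zfp810* rose 7.42-fold and *Zfp715* 5.53-fold, and *Zfp715* also rose in E10.5 microglia over YSM by its brighter probe. The second probe of *Zfp715* averaged 7.541 in YSM, 7.372 at E10.5 and 8.708 in adult, and so did not rise between YSM and E10.5. The promoter windows of *Zfp579* and *Zfp30* printed above share no searched motif.

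*Zfp979* ran the other way through the whole series. Its means were 10.40 in YSM, 9.29 at E10.5, 8.15 at E12.5, 7.24 at E14.5, 5.46 at E16.5, 5.29 at E18.5, 5.10 at P0 and 4.97 in adult, and from E16.5 on no array detected it by this probe. Adult microglia had 5.10, 4.93 and 4.88, against 9.28, 9.50 and 9.09 at E10.5, at least 8.85-fold lower (adjusted p = 6.38e-14). Each of the first 4 steps passed the test on its own, and the second probe fell over the same stages (r = 0.984 over the 8 group means). That probe was, however, still detected on 3 E16.5 arrays, 1 E18.5 array and 2 P0 arrays, with means of 5.98 at E16.5, 5.70 at E18.5 and 5.83 at P0, and on no adult array (5.69). *Zfp473*, which in human cells takes part in the 3′ end processing of histone mRNAs, was detected on no P0 or adult array and was at least 1.98-fold lower in adult (5.00, 4.98 and 5.12) than at E10.5 (7.29, 7.31 and 6.79). Cell cycle genes averaged 7.18 in adult, against 11.67 in YSM, and their part in this was not tested. *Zfp521* peaked at E12.5 with 7.83, 8.06 and 7.01 and was at least 2.01-fold lower in adult than at E10.5. *Zfp428* was at least 1.97-fold lower.

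**Figure D5:**
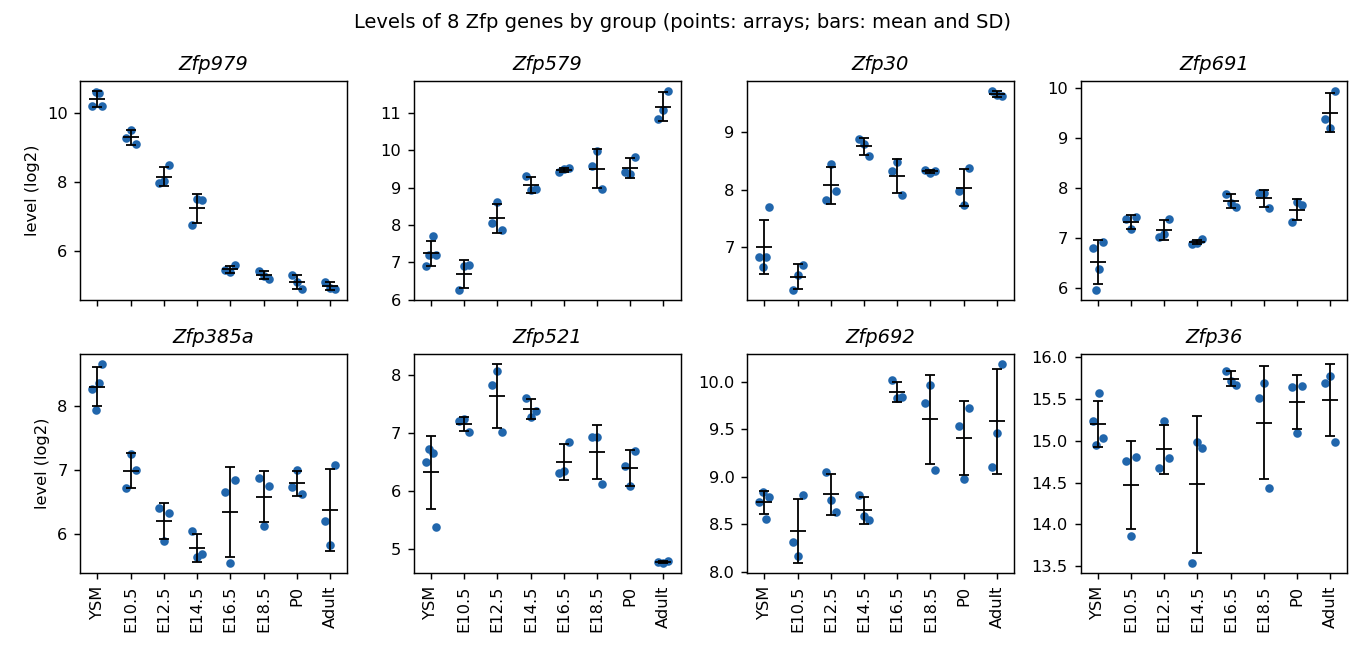
Levels (log2, vertical axes) of *Zfp979*, *Zfp579*, *Zfp30*, *Zfp691*, *Zfp385a*, *Zfp521*, *Zfp692* and *Zfp36* in the 8 groups in time order (horizontal axes), with 1 point per array and the mean and SD of each group as bars. The adult mean of *Zfp979* is 4.97 and that of *Zfp579* is 11.16.

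Genes that led in a single middle stage did so by small margins. *Zfp365*, whose product binds DISC1 in neurons, was highest in E10.5 microglia (5.99, 6.57 and 7.12) with a lead of 0.38 over the next group, and *Zfp560* led there by 0.34 (7.64, 7.74 and 7.78). The second probe of *Zfp560* had its lowest mean at E10.5 (4.84) and its highest in adult (7.23). *Zfp386* led at E12.5 by 0.15 with 2 of 3 arrays detecting it, *Zfp41* and *Zfp27* at E14.5 by 0.16 and 0.14, *Zfp664* and *Zfp955a* at E18.5 by 0.11 each, and *Zfp316* and *Zfp821* at P0 by 0.01 each. *Zfp692* led at E16.5 by 0.29 and *Zfp36* by 0.26, and *Zfp521* at E12.5 by 0.22. The leads of *Zfp365*, *Zfp560* and *Zfp692* were above 0.265, the median SD between arrays over the *Zfp* genes, but in every gene of these middle groups the arrays of the leading group overlapped those of the next. The pooled SD of the leading and the next group was 0.509 for *Zfp365*, 0.14 for *Zfp560* and 0.342 for *Zfp692*, so that only *Zfp560* led by more than its own spread. The other probes of *Zfp692*, *Zfp27* and *Zfp955a* were highest in adult, while those of *Zfp41* and *Zfp664* peaked with the main probe. In YSM the lead of *Zfp385a* was 1.31 and that of *Zfp979* 1.11, and in adult those of *Zfp385c* and *Zfp691* were 1.92 and 1.71.

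The CCCH factors lay near the top of the scanner's scale, with a span over the groups of 1.27 for *Zfp36* and 0.76 for *Zfp36l1*. Of the 4 on the list, *Zfp36* and *Zfp36l1* were measured, while *Zfp36l2* and *Zfp36l3* were detected on no array. *Zfp36*, or tristetraprolin, stood at 15.84, 15.72 and 15.67 at E16.5, against 13.54, 14.99 and 14.91 at E14.5 (1.26 ± 0.36, adjusted p = 0.0123). The groups did not overlap, but 1 low E14.5 array carried much of the difference: without E14.5 replicate 1 it was 0.79 (adjusted p = 0.0824), and with scaling to the 75th percentile 0.82 (adjusted p = 0.12). Raw signals of *Zfp36* at E16.5 were 65891, 62074 and 62519, where the brightest probe of those arrays read 71280, 67884 and 68129, so that levels there may be compressed. By its brightest probe *Zfp36l1* rose at E12.5 (15.37, 15.34 and 15.37, against 14.70, 14.45 and 14.79 at E10.5, 1.64-fold, adjusted p = 0.0001) and stayed between 15.10 and 15.51 afterwards. Its raw signal reached 66517 on P0 replicate 1, where the brightest probe read 71614, so that its levels may be compressed too. A much dimmer probe of *Zfp36l1* spanned 1.444, with means of 8.045 at E10.5, 9.445 at E12.5, 9.489 at E14.5, 9.003 at P0 and 8.848 in adult. Another probe spanned 0.71. In adult over E10.5 microglia *Zfp36* was higher by 1.01 (adjusted p = 0.0187) and *Zfp36l1* by 0.53 (adjusted p = 0.000333). Neither passed the test in adult over P0. Of 20 listed genes of deadenylation, decay and the MK2 kinase pathway that acts on ZFP36, 18 were measured, and in adult over P0 3 rose (16.7%, against 24.2% of all genes) and 6 fell (33.3%, against 26.9%), among them *Mapkapk2*, which encodes MK2 (-1.62), while *Cnot3*, a subunit of the CCR4-NOT deadenylase, rose by 1.35.

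Of the 10 listed members that bind RNA or act on ribosomes, 8 were measured. In adult over P0 3 rose (37.5%, against 24.2% of all genes), 1 fell (against 26.9% of all genes) and 4 did not pass. The risers were *Zfp346* (8.71, 9.01 and 8.35 in adult, against 7.57, 8.12 and 7.95 at P0, 1.75-fold), *Zfp638*, whose human counterpart helps silence unintegrated retroviral DNA (1.51-fold), and *Zfp622*, a factor of large ribosomal subunit maturation, which was detected on 1 of 3 adult arrays and on no P0 array, so that no fold is given (6.10, 6.01 and 6.27 in adult, against 5.58, 5.38 and 5.48 at P0, adjusted p = 0.025). *Zfp106*, an RNA-binding protein needed by motor neurons, fell to 8.47, 8.15 and 7.76 in adult, against 8.79, 9.03 and 8.66 at P0. *Zfp326*, which in human cells couples transcription to splicing, spanned 0.46 over all groups by its brightest probe. Its other probes spanned 0.965 and 0.896, both with their lowest mean at E16.5. *Zfp207*, a spindle and kinetochore protein, did not pass the F test (adjusted p = 0.1). *Zfp593*, another ribosome assembly factor, was highest in YSM at 7.30 and passed the F test (adjusted p = 0.00112) but no single comparison.

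Both measured members of the imprinting and retroelement list rose over the span within the brain. *Zfp809*, which silences murine leukaemia virus in embryonic cells, stood at 8.39, 8.37 and 7.73 in adult, against 7.05, 7.24 and 6.93 at P0 (2.13-fold, 1.09 ± 0.23, adjusted p = 0.000531), and at 6.95, 7.25 and 6.69 at E10.5. *Zfp445*, which maintains imprints, was higher in adult (9.73, 9.26 and 8.84) than at E10.5 (8.19, 8.72 and 8.06; 1.94-fold, adjusted p = 0.00503), with its highest mean at E18.5 and a wide spread between arrays. Of the pluripotency list, *Zfp281* was higher in adult than at E10.5 by 0.32 (adjusted p = 0.038), *Zfp322a* lower by 0.96 (adjusted p = 0.000819), and *Zfp296* was detected on 1 of 3 adult arrays; *Zfp42* (Rex1) and *Zfp462* were detected on no array. *Zfp423*, the relative of *Zfp521*, was detected on 2 arrays and not analysed further.

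Of 28 other listed regulators, 20 were measured, and in adult over P0 9 rose (45%, against 24.2% of all genes) and 2 fell (10%, against 26.9%). Besides *Zfp652* and *Zfp467*, *Zfp592*, which in human cells pairs with *Zfp687* in the same complex, rose 2.05-fold (10.40, 10.41 and 9.73 in adult, against 9.04, 9.30 and 9.11 at P0), *Zfp451*, a SUMO ligase, 1.72-fold, *Zfp369*, a partner of the p75 neurotrophin receptor, 1.69-fold, *Zfp608* 1.57-fold, *Zfp263* 1.43-fold and *Zfp148* 1.36-fold. *Zfp217*, known in human as an amplified oncogene, was below background at P0 and at least 1.62-fold higher in adult. *Zfp91* (-0.59) and *Zfp516*, an activator of the brown fat gene Ucp1 (-0.64), fell. *Zfp219*, a partner of SOX9 in cartilage, did not pass in adult over P0 but was 2.73-fold higher in adult (11.29, 11.50 and 11.83) than at E10.5 (9.95, 10.10 and 10.23), and *Zfp292* was 2.06-fold higher. *Zfp131* rose by 0.46 over the same span. *Zfp609*, with 1 or 2 arrays detecting it in a few groups, spanned 0.45 and did not pass the F test (adjusted p = 0.795).

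KRAB zinc finger proteins act through a set of co-repressor genes. Of 26 listed 16 were measured, and in adult over P0 3 rose (18.8%, against 24.2% of all genes) and 7 fell (43.8%, against 26.9%), with a median of -0.406. *Trim28*, the scaffold that KRAB domains bind, fell by 0.97 (SE 0.16, adjusted p = 3.46e-05), *Setdb1*, the H3K9 methyltransferase it recruits, by 0.69, and *Uhrf1*, which brings DNA methylation to replicating DNA, fell most (difference -3.715, SE 0.14, adjusted p = 3.06e-14). *Resf1*, a partner of SETDB1 in retroelement silencing, rose by 0.68. *Uhrf1* and *Dnmt1* are also genes of dividing cells, and cell cycle genes were lower in adult than at P0 by the levels given above. Other zinc finger families were counted in the same comparison: of 11 measured *Zkscan* and *Zscan* genes 10 rose (90.9%) and 0 fell (median 0.69), of 30 *Zbtb* genes 16 rose (53.3%) and 2 fell (6.67%, median 0.48), and of 11 *Klf* genes 0 rose and 1 fell (9.09%, median 0.19), where 24.2% of all genes rose and 26.9% fell. The differences between them were not tested.

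The falls at E16.5 and the rises in the adult met in many of the same genes. These 2 comparisons share no arrays. Of the 65 *Zfp* genes that fell in E16.5 over E14.5 microglia, 46 rose in adult over P0 (70.8% of the fallen and 39% of the risen). Of the 148 that did not fall, 72 rose (48.6%). Over all genes 28.8% of those that fell at E16.5 rose in the adult, against 23% of those that did not. By their main probes *Zfp37*, *Zfp763*, *Zfp457* and *Zfp874b* were examples: *Zfp457* had means of 7.65 at E14.5, 5.92 at E16.5, 6.45 at P0 and 7.62 in adult. The second probe of *Zfp37*, however, was higher at E16.5 (6.585) than at E14.5 (5.756). That of *Zfp763* was lower in adult (6.345) than at P0 (6.711). The brightness of the arrays over background stepped up at E16.5 and down again in the adult, and its part in this overlap was not tested.

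Neighbours in the genome were described apart. In RefSeq gene order, 103 of the 213 had another *Zfp* gene next to them. Of these, 67 (65.0%) were highest in adult, 61 (59.2%) rose in adult over P0 and 2 fell, and 40 (38.8%) fell at E16.5. Of the 110 with no *Zfp* gene next to them, 58 (52.7%) were highest in adult, 57 (51.8%) rose and 8 fell in adult over P0, and 25 (22.7%) fell at E16.5. The median adult over P0 difference was 0.69 in the first set and 0.47 in the second, and the median E16.5 over E14.5 difference -0.35 and -0.02. The first set was dimmer, with a median level of 7.25, against 8.16 in the second, and the part of level was not tested. Neighbours can share both regulation and probe sequence, so that they are not separate observations, and the difference between the sets was not tested.

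A second look at each gene came from its other probes. Of the 213 genes, 79 had 93 further probes that met the detection filter, and 50 of these were highest in the same group as the main probe. Over the 8 group means the correlation with the main probe had a median of 0.727 and reached down to -0.944, over points that share their arrays. For adult over P0, 44 of 49 further probes of genes that rose were also higher in adult (median 0.62). For E16.5 over E14.5, 19 of 31 further probes of genes that fell were also lower (median -0.29).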

How the data were processed

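RNA of sorted cells was hybridised by the authors to Illumina Mouse WG-6 v2 arrays. The deposited probe table gives each sample's intensity, a signal not yet normalized, and the authors' detection p-value of each probe. GenomeStudio and lumi are named in the submitters' processing notes, with versions not given in the sources used here. The authors' quantile-normalized intensity, deposited on a linear scale in a second table and again as the series' value table, served only for alternatives. Replicate numbers of arrays follow column order in the signal table and need not match the numbers in the sample titles. Here, all 25 distinct arrays were background-corrected with normexp from the detection p-values, offset by 16, quantile normalized and put on the log2 scale (neqc, limma 3.58.1, R 4.3.3). Of 45281 probes, 34885 had 1 gene symbol, 18 several and 10378 none in the platform annotation, and no symbol differed from the current gene table over 34807 matches. Probes detected (p-value under 0.01) on at least 3 arrays were kept (19789, 16741 with 1 symbol), and a gene was read by its brightest kept probe on average, giving 10630 genes.

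One linear model with a mean per group (17 residual degrees of freedom, lmFit and eBayes) gave a moderated F test over the groups and 8 comparisons: each stage against the one before it, and adult against E10.5. P-values were adjusted by the Benjamini-Hochberg method over all 10630 genes, with a threshold of 0.05. A gene below background on every array of a group has only a bound there: the fold was set against the lowest detected signal of those arrays and printed as "at least", and omitted where it was under 1. Named genes were those with the 8 largest and 3 smallest spans, the 3 largest rises and falls of each comparison whose groups did not overlap, the 2 with the largest lead in each group, and every measured gene of the role lists; *Zfp101* and *Zfp239* were named after their values were seen, to complete a count. The members and lists were chosen with earlier results of these data known. In a simulated check of adult over P0, 200 of 10630 genes were changed. Of those changed by 1 on the log2 scale 67% were recovered, and of those changed by 2, 98%, with 8 false calls. In the data 51.1% of all genes were called in this comparison. Recovery and false calls depend on the share that changes, so these figures do not carry over to it. Array number limits the precision, and no chip identity was given to test as a batch.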

Additional observations from a re-analysis of the deposited data

Results flagged for a closer look

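Among the 69 named *Zfp* genes, the 4 YSM arrays were searched for an array whose gap to the nearest other was over Dixon's critical share of the group's range, and 5 genes were found. Chance gives about 1 in 20 groups, so a few of the 69 would pass by chance alone, and the count of 5 is no evidence of more. Only the named genes were searched, so no share over all genes stands beside this count. All 5 gaps belonged to YSM replicate 4 (numbered by its column in the signal table, which need not be the number in a sample title), the dimmest array of the series (13224 probes detected, mean signal 269.4). *Zfp37* stood at 6.59 there, against 6.00 to 6.05 on the other YSM arrays. *Zfp467* stood at 6.63, against 7.70 to 7.84. *Zfp1* stood at 4.65, against 6.11 to 6.37, and *Zfp521* at 5.38, against 6.51 to 6.73. *Zfp207* stood at 10.19, against 9.90 to 9.95, a gap only just over the critical share. The direction was not shared, since 2 of the 5 were high and 3 low. The part of brightness in these gaps was not tested.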

How the results depend on the processing

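Over 35 differences of named genes and 37 alternatives, 1258 pairs could be computed and 0 changed sign. The other 37 gave no value, as where a gene missed the stricter detection filter or the YSM arrays were left out. These differences had been picked among groups that did not overlap, and arrays were left out after normalization. Leaving out 1 array could therefore not change a sign, and for those pairs the count carries no information. With detection required on all 25 arrays, chosen after the data were seen and leaving 117 *Zfp* genes, 109 passed the F test, 24 were called in E10.5 over YSM, 28 in E12.5 over E10.5, 0 in E14.5 over E12.5, 3 in E18.5 over E16.5, 78 in adult over P0 and 85 in adult over E10.5, 66 were highest in adult, and the median span was 1.045. The methods' analysis of variance with Tukey's test called 29 in E10.5 over YSM, 22 in E12.5 over E10.5, 2 in E14.5 over E12.5 and 1 in P0 over E18.5. Scaling to the 75th percentile called 31 in E10.5 over YSM and 2 in E18.5 over E16.5, and no filter on dim probes called 2 in E18.5 over E16.5 and gave a median span of 0.917. The median span was 0.79 without background correction and 0.787 in the authors' normalized values (with their Tukey test and with the series' value table too). Replicate numbers did not pair the samples: same-numbered samples deviated together with a median r of -0.01 over 84 pairs (-0.634 to 0.47), against 0.001 over 189 differently numbered pairs. With the replicate number as a block, on the series' value table, 24 were called in E10.5 over YSM and 3 in E18.5 over E16.5, and the median span was 0.787. Leaving out each of the 25 arrays in turn gave 185 to 195 for the F test, 28 to 51 in E10.5 over YSM, 31 to 55 in E12.5 over E10.5, 0 to 2 in E14.5 over E12.5, 65 to 85 in E16.5 over E14.5, 1 to 8 in E18.5 over E16.5, 0 to 0 in P0 over E18.5, 102 to 133 in adult over P0, 134 to 159 in adult over E10.5, 122 to 136 highest in adult and a median span of 1.268 to 1.317. Calls of named genes lost on leaving out 1 array, beside those of *Zfp36* and *Zfp979* given above, were *Zfp365* in E10.5 over YSM (adjusted p = 0.0604 without E10.5 replicate 3), *Zfp607a* in E12.5 over E10.5 (0.0694 without E10.5 replicate 1), *Zfp1* in E16.5 over E14.5 (0.0708 and 0.108 without E14.5 replicates 1 and 3, 0.0925 without E16.5 replicate 1), and in E18.5 over E16.5 *Zfp58* (14 of 25 arrays, 9 of them of other stages, 0.05 to 0.171), *Zfp318* (6 arrays, all of the stages compared, 0.0658 to 0.152) and *Zfp352* (19 arrays, 14 of other stages, 0.0501 to 0.216). *Zfp352* also lost its call under 9 of 10 other alternatives (0.0537 to 0.123), *Zfp58* under 4 of 12 (0.0562 to 0.102) and *Zfp318* under 2 of 12 (0.0568 and 0.138). Under 2 each, *Zfp365* (0.0915 and 0.0924), *Zfp607a* (0.0598, Tukey's test 0.179), *Zfp1* (0.0501, Tukey's test 0.243) and *Zfp36* (0.12, Tukey's test 0.0678) lost theirs. Scaling to the 75th percentile lost *Zfp457* (0.0625) and *Zfp169* (0.0709) in E10.5 over YSM. Tukey's test lost *Zfp688* (0.0507) in E12.5 over E10.5, and the mean of the probes *Zfp37* (0.791) in E18.5 over E16.5. Without the YSM arrays (also chosen after the data were seen), 123 rose and 11 fell in adult over P0. The causes were not tested. A chip block was not run because the headers name no chip.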
